A study of Homo sapiens with 8 samples.

Results

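The 8 genes described here encode proteins that tie actin filaments into bundles or fix them to membranes. They were chosen by name, with the difference between treated and control counts of these same libraries already known, so that difference is given below as a description and no test is read from it. All 8 symbols were found, each on 1 row, among the 20323 genes of the deposited table. They are the plastins LCP1, PLS1 and PLS3, the bundler FSCN1, the alpha-actinins ACTN1 and ACTN4, and the membrane and microvillus proteins VIL1 and EZR.

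Bundles of parallel actin filaments stiffen filopodia, microvilli and the edges of moving cells, while alpha-actinins join filaments of opposite direction in stress fibres and at adhesions. Plastins carry a pair of actin-binding units in 1 chain and so bridge neighbouring filaments closely. Each plastin has a usual home: PLS1 in the microvilli of gut and kidney and in hair cells, PLS3 in most solid tissues, and LCP1 (L-plastin) in white blood cells, although many tumour cells of other origin also make it.

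The libraries came from H2452, an established human line labelled as pleural biphasic mesothelioma with a wild-type genotype, grown in medium with serum. In the DPT group cells received deoxypodophyllotoxin, a plant lignan that blocks microtubule assembly, at 20 nM for 48 h, and in the DMSO group only the solvent for the same 48 h. Each group had 4 libraries, called biological replicates in the series design, all from 1 cell line and 1 time. Total counts ran from 14964432 to 17205391 per library, and expected counts were scaled for library size to CPM with the TMM method.

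DMSO replicate 3 and DPT replicate 2, called the pair below, stood apart from the other 6 libraries over all genes. They scored 40.76 and 29.26 on the leading principal component, against -25.6 to -1.02 for the others. Values are therefore given with the pair, without it, and within it (DPT replicate 2 over DMSO replicate 3, 1 library each). What set the pair apart was not tested. Of 15 mesothelial markers 3 (LRRN4, HP and ITLN1) stayed below 1 CPM in all 8 libraries. The rest were present, and several differed between the groups. KRT18 ranged from 1047 to 1448 CPM in DMSO and from 638 to 912 in DPT, and KRT19, PDPN and UPK3B were likewise lower in DPT without overlap. CALB2 ranged from 7.18 to 13.1 CPM in DMSO and from 13.4 to 15.6 in DPT, and BNC1 was also higher in DPT without overlap. MSLN (10.4 to 17.6 CPM over the 8 libraries), WT1 (7.07 to 10.8) and 6 more of the 15 markers overlapped between groups, and ITLN1 was at 0 throughout. These marker ranges are over all 8 libraries, with the pair. Among all tested genes 8.73% lay lower and 9.50% higher in DPT without overlap. The part of the marker shifts in the results below was not tested.

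LCP1 (ENSG00000136167, chromosome 13, 46125920 to 46211871 on the minus strand of GRCh38) measured 4.34, 4.27, 14.2 and 4.48 CPM in DMSO replicates 1 to 4. In DPT replicates 1 to 4 it measured 20.9, 38.2, 25.4 and 21.8 CPM. Every DPT library lay above every DMSO library, and in each group the library of the pair was the highest. The means were 6.82 ± 4.91 CPM in DMSO and 26.6 ± 8 CPM in DPT (SD, n = 4 each), a fitted log2 fold change of 1.94 (SE 0.40), or 3.85-fold.

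The pair changes the size of that difference. Without it the DMSO mean was 4.36 ± 0.109 CPM and the DPT mean 22.7 ± 2.41 CPM (SD, n = 3 each), a log2 fold change of 2.38 (SE 0.12), or 5.19-fold. Within the pair the DPT library exceeded the DMSO library 2.69-fold. Leaving out DMSO replicate 3 alone gave 6.06-fold, as that library held more LCP1 than any other control. DMSO replicate 3 exceeded the other DMSO libraries by 1.67 log2 and DPT replicate 2 exceeded the other DPT libraries by 0.75 log2, so the level of LCP1 differed between libraries of 1 group as well as between groups. The counts behind these values were 63 to 68 in DMSO replicates 1, 2 and 4, where 64 counts have an exact Poisson 95% interval of 49.3 to 81.7, and 243 in DMSO replicate 3 (213 to 276). In the DPT libraries there were 341 to 637 counts, the lowest with an interval of 306 to 379. These intervals cover counting error only.

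PLS1 (ENSG00000120756, chromosome 3, 142596387 to 142713664, plus strand), the plastin of microvilli, was near the limit of detection. It measured 1.63, 1.29, 1.23 and 1.25 CPM in DMSO replicates 1 to 4, and 2.51, 1.86, 2.09 and 3.19 CPM in DPT replicates 1 to 4. The groups did not overlap in CPM, but the gap between the highest DMSO and the lowest DPT library was narrow. In FPKM they overlapped, since DMSO replicate 1 (0.646) lay above DPT replicates 2 and 3 (0.544 and 0.576). PLS1 rested on 19 to 24 counts per DMSO library and 31 to 52 per DPT library, and the interval of the DMSO library with 24 counts (15.4 to 35.7) overlaps that of the DPT library with 31 (21.1 to 44). The fitted log2 fold change was 0.84 (SE 0.24), it was 0.90 (SE 0.30) without the pair, and the ratio within the pair was 1.52. Unlike LCP1, PLS1 was lowest of its group in each library of the pair, but mostly within counting error. The interval of DMSO replicate 3 (0.759 to 1.87 CPM) covers the values of the other DMSO libraries. That of DPT replicate 2 (1.26 to 2.64 CPM) covers those of DPT replicates 1 and 3. Brush-border cells are where PLS1 is at home, and 15 of their markers were summed. The sum was also higher in DPT, at 2.27 to 3.11 CPM against 1.49 to 1.93 CPM in DMSO. Of the 15 markers, 13 stayed below 1 CPM in every library. MYO7B (0.203 to 1.58 CPM in DMSO, 0.49 to 1.56 in DPT) and EPCAM (0.135 to 0.813 in DMSO, 0.36 to 1.79 in DPT) overlapped between groups. The part of this sum in the PLS1 difference was not tested.

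PLS3 (ENSG00000102024, chromosome X, 115561174 to 115650861, plus strand), the plastin of solid tissues, was abundant and nearly flat. It measured 569, 569, 631 and 589 CPM in DMSO replicates 1 to 4 and 576, 667, 620 and 627 CPM in DPT replicates 1 to 4. The groups overlapped, and the log2 fold change was 0.08 (SE 0.067), the same without the pair (SE 0.041).

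**Figure D1:**
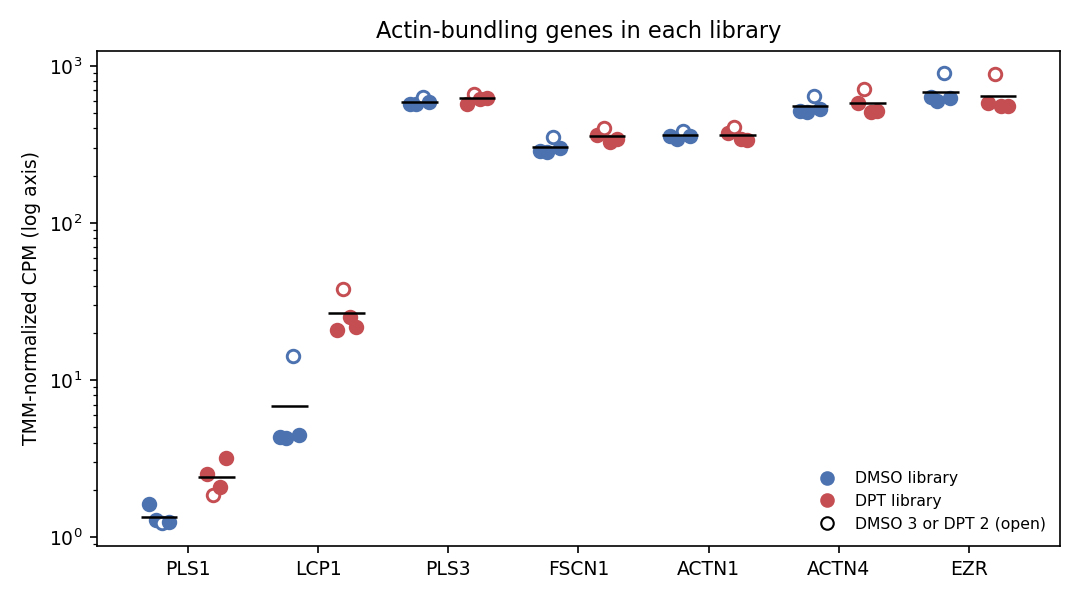
TMM-normalized CPM (log axis) of the 7 bundling genes with tested counts, 1 point per library, DMSO left and DPT right of each name; short lines are group means over 4 libraries and open points are DMSO replicate 3 and DPT replicate 2. LCP1 moves from 4.27 to 14.2 CPM in DMSO to 20.9 to 38.2 CPM in DPT, PLS3 stays between 569 and 667 CPM, and the open points are the highest of their group for every gene shown except PLS1.

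Per unit of transcript length PLS3 lay far above the other plastins in each group. In FPKM, which divides by transcript length and library size, PLS3 averaged 183 ± 9.98 in DMSO and 200 ± 11.4 in DPT, LCP1 1.89 ± 1.34 and 7.48 ± 2.14, and PLS1 0.486 ± 0.141 and 0.728 ± 0.196 (SD, n = 4 each). PLS3 thus supplied 98.7% ± 0.562 of the summed plastin FPKM in DMSO and 96.1% ± 0.719 in DPT. The share of LCP1 was 0.655%, 0.725%, 1.93% and 0.654% in DMSO replicates 1 to 4 and 3.14%, 4.71%, 3.48% and 2.89% in DPT replicates 1 to 4, with no overlap. PLS1 stayed between 0.163% and 0.451% in the 8 libraries and its groups overlapped. FPKM is a level of message and says nothing of the amount of protein.

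**Figure D2:**
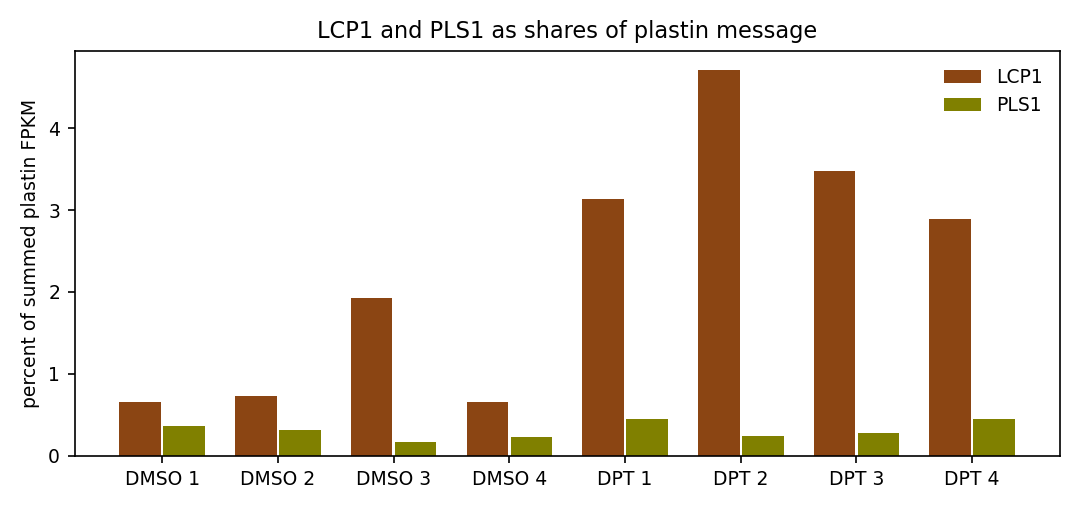
LCP1 and PLS1 as percent of the summed FPKM of the 3 plastins in each of the 8 libraries; PLS3 makes up the rest. LCP1 holds 0.654% to 1.93% in DMSO and 2.89% to 4.71% in DPT, while PLS1 stays below 0.5% everywhere.

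The start regions of the 3 plastin genes are shown because their messages differ so widely in level in the same cells. Each window comes from RefSeq on GRCh38.p14 and runs 5′ to 3′ on the gene's strand, from 250 bases before the annotated start to 50 bases from it. Capitals mark matches, on either strand, to the GC box GGGCGG, the TATA box TATAAA, the AP-1 site TGANTCA, the cAMP response element TGACGTCA or the NF-kB site GGGNNTTCC. The windows are chr13:46182128-46182427 (minus strand) for LCP1, chr3:142596143-142596442 (plus strand) for PLS1 and chrX:115560924-115561223 (plus strand) for PLS3. PLS1 and PLS3 have further RefSeq starts, whose windows are not shown.

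LCP1: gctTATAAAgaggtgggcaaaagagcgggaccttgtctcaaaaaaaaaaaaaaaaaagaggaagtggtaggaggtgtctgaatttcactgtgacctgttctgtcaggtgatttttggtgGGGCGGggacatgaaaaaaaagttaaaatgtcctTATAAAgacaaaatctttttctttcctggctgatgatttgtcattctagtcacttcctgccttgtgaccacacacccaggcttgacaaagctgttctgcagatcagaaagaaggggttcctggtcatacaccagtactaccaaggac

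PLS1: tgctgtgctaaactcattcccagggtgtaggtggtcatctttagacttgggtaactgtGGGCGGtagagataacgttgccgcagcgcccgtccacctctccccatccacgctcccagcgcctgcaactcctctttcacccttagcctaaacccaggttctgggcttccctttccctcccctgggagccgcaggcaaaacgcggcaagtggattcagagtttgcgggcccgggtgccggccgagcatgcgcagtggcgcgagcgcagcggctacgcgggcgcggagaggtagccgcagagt

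PLS3: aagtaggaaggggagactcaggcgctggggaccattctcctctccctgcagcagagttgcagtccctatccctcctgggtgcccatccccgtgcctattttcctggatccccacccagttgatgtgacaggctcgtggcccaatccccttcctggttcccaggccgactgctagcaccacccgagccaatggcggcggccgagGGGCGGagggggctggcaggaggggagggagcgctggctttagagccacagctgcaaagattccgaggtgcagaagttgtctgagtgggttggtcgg

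The LCP1 window held 2 CpG dinucleotides and 42.7% G and C, against 24 and 63% for PLS1 and 12 and 63.3% for PLS3, and the median over all 35116 RefSeq windows of this length was 14 CpG. It held the letters TATAAA at window positions 4 and 154, which lie -247 and -97 bases from the start, and a GC box at -131. The windows of PLS1 and PLS3 each held a single match, a GC box at -192 and at -47. A TATA box match was present in 11.5% of all windows and a GC box match in 45.0%. None of the 3 windows held the letters of an AP-1 site (7.71% of all windows), a cAMP response element (1.85%) or an NF-kB site (6.58%). The LCP1 gene model reaches upstream of this start, and counts per gene do not show which start was used.

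FSCN1 (ENSG00000075618, chromosome 7, 5592823 to 5606655, plus strand) encodes fascin, which packs filaments into the cores of filopodia. It measured 286, 284, 352 and 302 CPM in DMSO replicates 1 to 4 and 362, 404, 329 and 343 CPM in DPT replicates 1 to 4. The groups overlapped only through DMSO replicate 3, which lay above DPT replicates 3 and 4. The log2 fold change was 0.23 (SE 0.092) with all libraries and 0.24 (SE 0.046) without the pair, and the ratio within the pair was 1.15.

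The alpha-actinins showed no such step. ACTN1 (ENSG00000072110, chromosome 14, 68874143 to 68979440, minus strand), a crosslinker of stress fibres and adhesions, measured 360, 345, 386 and 357 CPM in DMSO replicates 1 to 4 and 373, 407, 343 and 338 CPM in DPT replicates 1 to 4. Its log2 fold change was 0.01 (SE 0.076), and -0.01 without the pair. ACTN4 (ENSG00000130402, chromosome 19, 38647649 to 38731583, plus strand), its close relative, measured 515, 510, 647 and 535 CPM in DMSO replicates 1 to 4 and 581, 712, 508 and 519 CPM in DPT replicates 1 to 4. The groups of either gene overlapped fully, and for ACTN4 the log2 fold change of 0.07 (SE 0.12) was smaller than the step from the other DMSO libraries to DMSO replicate 3 (0.32 log2). Exons of ACTN4 share up to 692 bases with CAPN12 on the opposite strand, and no source used here states whether the counting used strand.

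EZR (ENSG00000092820, chromosome 6, 158765741 to 158819412, minus strand) encodes ezrin, which fixes actin to the plasma membrane and is rich at the microvilli of mesothelial cells. It measured 634, 594, 898 and 621 CPM in DMSO replicates 1 to 4 and 581, 882, 558 and 553 CPM in DPT replicates 1 to 4. The pair stood far above the rest in each group, by 0.54 log2 in DMSO and 0.64 log2 in DPT, and this step was larger than any difference between the groups. With all 8 libraries the log2 fold change was -0.09 (SE 0.18). Without the pair the 3 DPT libraries lay below the 3 DMSO libraries, at 564 ± 15.1 against 616 ± 20.4 CPM (SD, n = 3 each), a log2 fold change of -0.13 (SE 0.040), and within the pair the ratio was 0.98.

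The EZR window, shown because EZR differs most between the pair and the rest among the 5 abundant members, lies at chr6:158818186-158818485 (minus strand, RefSeq, GRCh38.p14), with capitals for the same 5 motifs.

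EZR: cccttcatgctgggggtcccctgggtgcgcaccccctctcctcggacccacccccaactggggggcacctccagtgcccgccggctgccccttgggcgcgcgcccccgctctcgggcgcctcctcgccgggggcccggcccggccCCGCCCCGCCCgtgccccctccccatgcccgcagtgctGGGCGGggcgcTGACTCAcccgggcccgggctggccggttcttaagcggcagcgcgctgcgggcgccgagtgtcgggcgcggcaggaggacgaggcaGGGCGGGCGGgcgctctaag

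It held 36 CpG dinucleotides and an AP-1 site, TGACTCA, at -56, beside several GC boxes, some of which overlap each other.

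VIL1 (ENSG00000127831, chromosome 2, 218419092 to 218453295, plus strand) encodes villin, the bundler and cutter of filaments in gut microvilli. It had 0 counts in 7 libraries, which allows a level of up to 0.203 CPM in the shallowest of them (3 counts), and an expected count of 5.05 in DPT replicate 4. It did not pass the filter on low counts, so 7 of the 8 genes were tested. Exons of VIL1 share up to 3045 bases with USP37 on the opposite strand. Of 15 markers of brush-border cells 5 had no count in any library (CDX1, CDX2, SI, TFF3 and USH1C), 13 stayed below 1 CPM in all, and EPCAM and MYO7B reached 1.79 and 1.58 CPM.

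In order of mean FPKM in DMSO, EZR (221 ± 47.6) came first, followed by PLS3 (183 ± 9.98), ACTN4 (144 ± 17.5), FSCN1 (111 ± 12.3), ACTN1 (107 ± 7.1), LCP1 (1.89 ± 1.34), PLS1 (0.486 ± 0.141) and VIL1 (listed at 0). These are means ± SD over 4 libraries, and the order was the same in DPT and, within DMSO, in TPM recomputed from FPKM. The ranges of EZR and PLS3 overlapped in DMSO, as did those of FSCN1 and ACTN1, so those neighbours are not separated beyond their spread. No other neighbours in this order overlapped in DMSO, and the widest step lay between ACTN1, at 101 or more, and LCP1, at 3.9 or less. In DPT, PLS3 (186 to 213) overlapped both EZR (184 to 291) and ACTN4 (135 to 188), and ACTN4 overlapped FSCN1 (122 to 149). There EZR came first through DPT replicate 2 (291), and in DPT replicates 1, 3 and 4 it measured 193, 186 and 184 FPKM against 186, 201 and 202 for PLS3. Summed over the 8 genes, the level was 769 ± 94.7 FPKM in DMSO and 816 ± 102 FPKM in DPT (SD, n = 4 each), with overlapping groups.

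**Figure D3:**
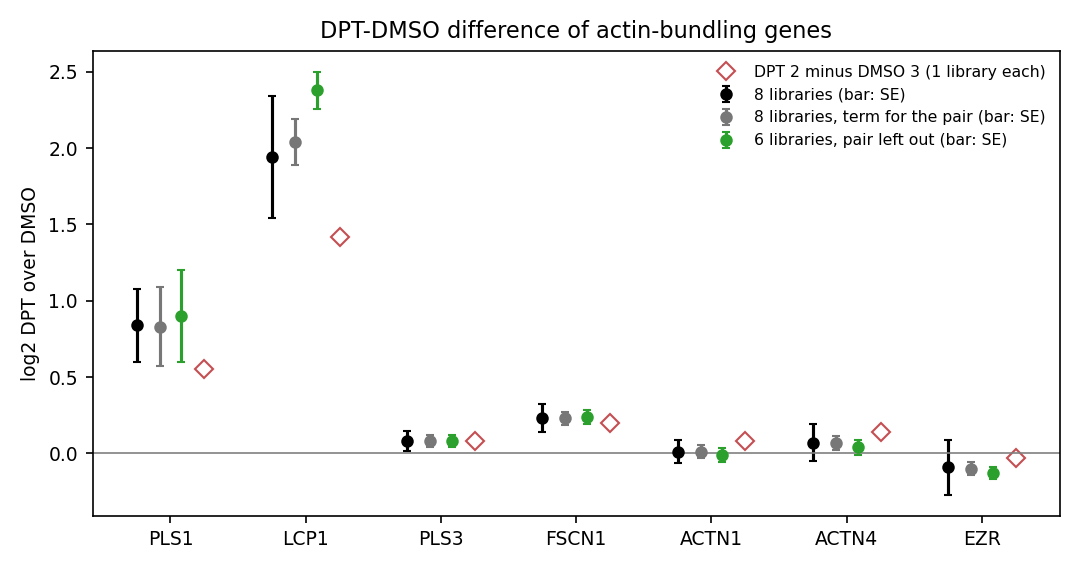
Difference between DPT and DMSO on the log2 scale for the 7 tested genes, from the fits on all 8 libraries, on 8 libraries with a term for the pair and on the 6 other libraries (bars: SE), beside the difference within the pair (1 library each, no error). LCP1 runs from 1.42 to 2.38 and PLS1 from 0.55 to 0.90, while the other 5 genes lie between -0.13 and 0.24.

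With all 8 libraries LCP1 was the 1 member of 7 tested that passed an adjusted p under 0.05 in edgeR's quasi-likelihood test, where 5.68% of all 12648 tested genes were higher and 5.29% lower. It was also the 1 member that differed at least 2-fold, as did 2.72% of all tested genes. With a term for the pair LCP1, PLS1 and FSCN1 passed on the higher side (16.9% of all tested genes were higher and 17.0% lower). Without the pair the same 3 passed on the higher side and EZR on the lower side (17.0% and 17.1% of 12697 tested genes). Groups without overlap, higher in DPT, were seen for LCP1 and PLS1, as for 9.50% of all tested genes, against 8.73% on the lower side. Without the pair this held for LCP1, PLS1 and FSCN1 above and EZR below, where 22.8% of tested genes lay above and 22.8% below. The genes were chosen on this contrast, so nothing is read from these counts. When DMSO replicate 1 or DMSO replicate 4 was left out, LCP1 missed the threshold at a log2 fold change of 1.78 in either fit. FSCN1 passed beside it with DMSO replicate 3 left out (0.30 log2) and PLS1 with DPT replicate 2 left out (0.94 log2).

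In 6 of the 7 tested members each library of the pair was the highest of its group, which 25.6% of all tested genes showed. PLS1 was the exception and belonged to the 26.3% with the opposite order, in DMSO by a margin within counting error. Beta-actin and gamma-actin, the filament subunits themselves, followed the larger set. ACTB measured 5100 CPM in DMSO replicate 3 and 5718 in DPT replicate 2 against 3187 to 3673 in the other 6 libraries, and ACTG1 measured 2286 and 2736 against 1430 to 1717.

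LCP1 is a textbook marker of white blood cells, so 22 leukocyte markers were measured beside it. Of these, 16 stayed below 1 CPM in all 8 libraries, among them AIF1, MS4A1 and TYROBP, which had no count in any. PTPRC, the pan-leukocyte antigen CD45, ranged from 0.198 to 0.409 CPM in DMSO and 0.368 to 0.538 CPM in DPT. The list summed to 102 to 140 CPM in DMSO and 104 to 160 CPM in DPT, most of it from CD68 (82.9 to 128 CPM), with CD14 (5.39 to 26.3 CPM) and HCLS1 (5.93 to 9.38 CPM). CD14, CD68 and WAS were lowest of their group in DMSO replicate 3 and in DPT replicate 2, where LCP1 was highest. CORO1A was highest of its group in both (1.46 and 1.02 CPM). PTPRC, CD79A, ITGAM and LAPTM5 were highest in DMSO replicate 3 only, and CD3E and ITGB2 in DPT replicate 2 only. The other 19 summed to 3.23 to 4.9 CPM in DMSO and 4.38 to 6.04 CPM in DPT, less than LCP1 alone in each library. This sum was highest of its group in DMSO replicate 3 (4.9 CPM) and lowest in DPT replicate 2 (4.38 CPM). Without the pair it did not overlap between groups, at 3.23 to 3.66 CPM in DMSO and 4.96 to 6.04 CPM in DPT. Its part in the LCP1 difference was not tested.

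By the root mean square difference between log2 CPM profiles over the 8 libraries, each centred on its mean, the genes most like LCP1 were ALOXE3 (0.29), a lipoxygenase, SLC35F3 (0.31), RGS4 (0.32), a brake on G-protein signalling, and SPOCD1 (0.37). Their log2 fold changes were 2.46, 2.10, 1.55 and 2.18, and ALOXE3 rested on 2 to 14 counts per DMSO library. They were matched to LCP1 over these same libraries, so their fold changes follow from the choice and nothing is read from them. The same holds for each being highest of its group in DMSO replicate 3 and in DPT replicate 2. RGS4, for example, measured 35.9 CPM in DMSO replicate 3 and 14.5 to 17.9 CPM in the other DMSO libraries. The profiles most like PLS1 were those of PCSK6 (0.14), a protease that matures secreted proteins, AP1S3 (0.15), an adaptor of clathrin coats, PTGER4 (0.17), a receptor for prostaglandin E2, and N4BP3 (0.17). The other 5 tested members spanned 0.23 to 0.70 log2 between their lowest and highest library, too little for such a match.

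The rest of the actin machinery gives the setting. On 6 lists 167 other genes were placed by role, of which 147 were tested. With all 8 libraries 7 rose (4.76%) and 10 fell (6.80%), with a median log2 fold change of 0.01, against 0.00 over all tested genes. These shares lie near those of all genes in the same fit. None of the 147 differed by 2-fold in it, against 2.72% of all tested genes, and the fitted values ran from -0.75 to 0.96 log2. Adding the pair term gave 34 higher and 31 lower (23.1% and 21.1%), and removing the pair 36 and 37 (24.5% and 25.2%), above the shares of all genes in those fits. Without the pair 1 gene, FMN1, named after its value was seen, reached 2-fold (1.08 log2). Leaving out DMSO replicates 1, 2, 3 and 4 in turn gave 3, 4, 13 and 2 higher and 4, 5, 11 and 3 lower. The same for DPT replicates 1, 2, 3 and 4 gave 5, 9, 3 and 4 higher and 6, 18, 3 and 4 lower.

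**Figure D4:**
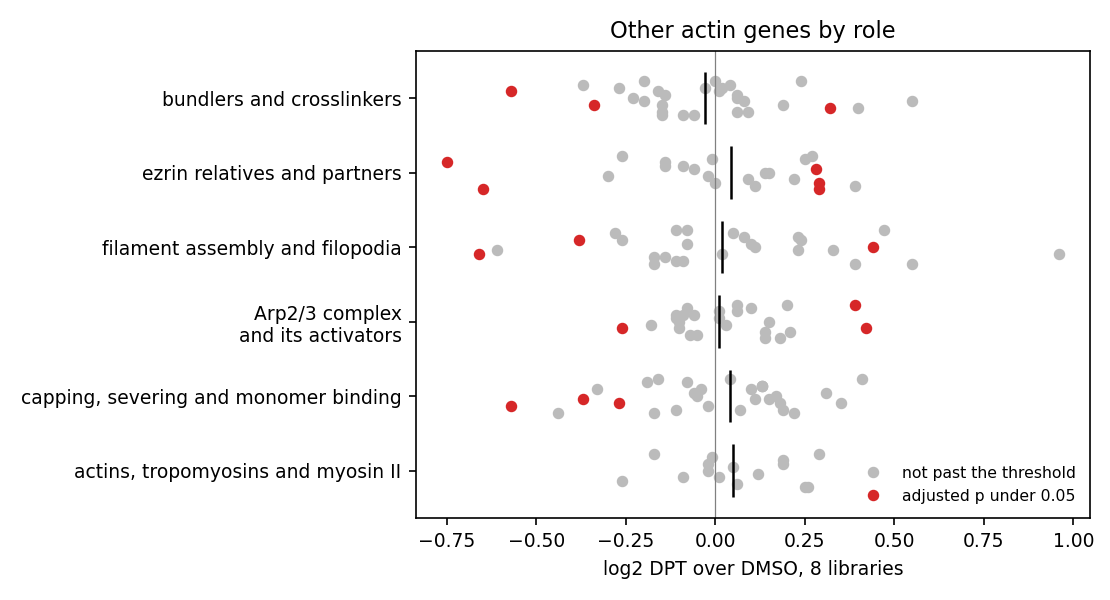
Log2 fold change, DPT over DMSO from the fit on 8 libraries, of the tested genes on 6 lists of actin genes; each point is 1 gene, red where its adjusted p is under 0.05, and black lines are list medians. Medians lie between -0.03 and 0.05, and no gene reaches 2-fold in either direction, against 2.72% of all tested genes.

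Among 29 other tested bundlers and crosslinkers 1 rose and 2 fell (median -0.03), and the pair term gave 4 higher and 11 lower (13.8% and 37.9%, against 16.9% and 17.0% of all tested genes). CORO1C, a coronin of the cell edge, rose from 458 ± 30.2 to 573 ± 49 CPM (SD over 4 libraries here and below, edgeR adjusted p = 0.0304). SYNPO, a partner of alpha-actinin, fell from 106 ± 16 to 71.2 ± 10.3 CPM (adjusted p = 0.0271), and AFAP1, which crosslinks filaments at Src kinase sites, fell from 566 ± 37.3 to 448 ± 23.8 CPM (adjusted p = 0.0159). The direction of CORO1C matched that of LCP1 and FSCN1, and those of SYNPO and AFAP1 did not.

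Of 22 tested relatives and partners of ezrin 3 rose and 2 fell (median 0.04), and with the term 7 rose and 5 fell (31.8% and 22.7%). SLK and STK10, the kinases that phosphorylate and open ezrin, radixin and moesin, rose by 0.29 log2 (adjusted p = 0.0106) and 0.28 log2 (adjusted p = 0.0144). EPB41L1 and EPB41L3, membrane linkers of the band 4.1 family, fell by 0.65 log2 (adjusted p = 0.00415) and 0.75 log2 (adjusted p = 0.0413). In limma on log2(FPKM + 1) EPB41L3 was at -0.22 log2 and on log2(FPKM + 0.1) at -0.34 (adjusted p = 0.414 and 0.425). The closest relatives of EZR did not pass in edgeR with all 8 libraries and no term for the pair. MSN stood at 992 ± 102 CPM in DMSO against 1178 ± 50.1 in DPT (log2 fold change 0.25, edgeR adjusted p = 0.0779, DESeq2 adjusted p = 0.0379), and RDX 229 ± 19 and 209 ± 18.5 CPM (log2 fold change -0.14, adjusted p = 0.349). With the term MSN rose by 0.25 log2 (adjusted p = 0.000148) and RDX fell by 0.14 log2 (adjusted p = 0.0248). Without the pair MSN rose by 0.29 log2 (adjusted p = 6.38e-06) and RDX fell by 0.14 log2 (adjusted p = 0.0339), beside the -0.13 of EZR.

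Of 27 tested genes of filament assembly and filopodia 1 rose and 2 fell (median 0.02), and with the term 8 rose and 6 fell (29.6% and 22.2%). MYO10, the motor that runs to filopodial tips along fascin bundles, rose from 97.2 ± 11.5 to 132 ± 7.76 CPM (adjusted p = 0.0137). BAIAP2L1, which bends membranes around actin, fell from 24 ± 1.29 to 15.1 ± 2.34 CPM (adjusted p = 0.00685), and the nucleator SPIRE2 fell by 0.38 log2 (adjusted p = 0.03). Among 25 tested genes of the Arp2/3 complex, which branches filaments, and its activators, 2 rose and 1 fell (median 0.01), and with the term 6 rose and 1 fell (24.0% and 4.00%). The subunit ARPC5L rose by 0.39 log2 (adjusted p = 0.0131), WIPF1, a partner of WASP proteins, rose by 0.42 log2 (adjusted p = 0.0327), and ABI2, a subunit of the WAVE complex, fell by 0.26 log2 (adjusted p = 0.0442). In limma on the same scales WIPF1 was at 0.15 and 0.20 log2 (adjusted p = 0.351 and 0.38) and ABI2 at -0.24 and -0.25 (adjusted p = 0.142 in both).

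Of 29 tested genes that cap, sever or hold actin monomers 3 fell and 0 rose in edgeR (median 0.04). On the higher side 4 passed at an unadjusted p under 0.05, 0 passed in DESeq2 and 2 in limma, and with the term 5 rose and 6 fell (17.2% and 20.7%). SVIL, a membrane-bound relative of villin and gelsolin, fell from 184 ± 9.16 to 125 ± 18.3 CPM (adjusted p = 0.00787), and TMOD3, which caps slow-growing ends, fell from 362 ± 9.16 to 301 ± 9.87 CPM (adjusted p = 0.0168). CFL1, the severing protein cofilin, measured 696 ± 94.7 and 686 ± 105 CPM (adjusted p = 0.931).

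Of 15 tested actins, tropomyosins and myosin II chains 0 rose and 0 fell in edgeR, with 1 higher and 0 lower at an unadjusted p under 0.05 and none past the threshold in DESeq2 or limma (median 0.05). With the term 4 rose and 2 fell (26.7% and 13.3%). ACTB stood at 3903 ± 812 CPM in DMSO against 3926 ± 1208 in DPT (adjusted p = 0.983) and ACTG1 measured 1831 ± 306 and 1804 ± 624 CPM (adjusted p = 0.961). Without the pair ACTG1 fell by 0.17 log2 (adjusted p = 0.00261) and ACTB stayed short of the threshold (-0.07 log2, adjusted p = 0.21). Of the 15 genes named from these lists for passing with all 8 libraries, SLK, EPB41L1, BAIAP2L1 and SVIL passed in each of the 8 fits that left out 1 library. The other 11 missed it in at least 2 of those fits. CORO1C, SYNPO, WIPF1 and ABI2 did so without DMSO replicate 1, 2 or 4 or DPT replicate 1, 3 or 4, with adjusted p up to 0.102, 0.0817, 0.104 and 0.132. AFAP1 missed it without DMSO replicate 1, 2 or 4 or DPT replicate 3 (up to 0.0614), STK10 without DMSO replicate 2 or 4 or DPT replicate 3 or 4 (up to 0.0555), and SPIRE2 without DMSO replicate 1, 2 or 4 or DPT replicate 3 or 4 (up to 0.0939). TMOD3 missed it without DMSO replicate 1 or 4 or DPT replicate 3 or 4 (up to 0.0664), and MYO10 and ARPC5L without DMSO replicate 1 or 4 (up to 0.0519 and 0.0513). EPB41L3 passed in 1 of the 8 fits, without DMSO replicate 2, and its adjusted p reached 0.112. With a term for the replicate number, EPB41L1 (edgeR adjusted p = 0.0342), MYO10 (0.0413) and ARPC5L (0.0494) were the only ones of the 15 to pass. SLK, BAIAP2L1 and SVIL missed the threshold there, at 0.0836, 0.0522 and 0.0552.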

How the data were processed

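Polyadenylated RNA of 8 H2452 libraries was sequenced after NEBNext Ultra preparation, per the labels' protocols. The authors deposited expected counts per gene (10.8% of values were not whole) and FPKM, per the file headers. The tools were RSEM, HISAT2, DESeq2, StringTie 1.3.1 and fastp 0.18.0 with build hg38, per the submitters' processing notes; no source used here gives their roles or the strand setting. The DMSO and DPT groups were taken from the sample titles.

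Expected counts were rounded and fitted in edgeR 4.0.16 (R 4.3.3) with filterByExpr (minimum count 10, minimum total 15), TMM and a treatment term, keeping 12648 genes. SE is derived from the quasi-likelihood F statistic. P-values were adjusted by Benjamini-Hochberg over every tested gene. The fit was also run on counts simulated with a common dispersion and no effect of the pair. That run therefore cannot show how the fit behaves with the pair present. Alternatives were DESeq2 1.42.0 and its size factors, limma 3.58.1 on log2(FPKM + 1) or log2(FPKM + 0.1), no filter, a replicate block, fits without single libraries, and a term for, or removal of, the pair. No 2 libraries of a group agreed within sampling noise (chi-square per gene of 2.65 or more). Profiles used log2 CPM with a prior count of 2.

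The members and lists were chosen with earlier results of these data known. Named genes were all members, up to 2 higher and 2 lower called genes of each list with the smallest adjusted p, ACTB, ACTG1, CFL1, MSN and RDX, and the 4 nearest profiles of each member spanning at least 1 log2. Gene positions are from GENCODE on GRCh38, and RefSeq start windows were found for 6 of the 8 members.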

Additional observations from a re-analysis of the deposited data

Results flagged for a closer look

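In each of 36 named genes the 4 libraries of a group were compared for 1 that lay far from the others (a gap, as a share of the group's range, above Dixon's 95% critical value). In all, 71 groups had some spread and 16 were flagged. Chance flags about 1 in 20 independent groups of normal values, which these are not. Some genes were chosen for profiles like LCP1 or PLS1, most flags fall on the pair, and VIL1 had counts in DPT replicate 4 alone. The number of flags is therefore not compared with that rate.

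Among the bundlers, LCP1 was flagged in DMSO replicate 3 (14.2 CPM, others 4.27 to 4.48), EZR in DMSO replicate 3 (898 CPM, others 594 to 634) and in DPT replicate 2 (882 CPM, others 553 to 581), PLS1 in DMSO replicate 1 (1.63 CPM, others 1.23 to 1.29) and VIL1 in DPT replicate 4 (0.306 CPM, others 0). Among genes with similar profiles the flags were SLC35F3 in DPT replicate 2 (6.41 CPM, others 3.29 to 3.55), RGS4 in DMSO replicate 3 (35.9 CPM, others 14.5 to 17.9) and PTGER4 in DMSO replicate 1 (2.91 CPM, others 1.98 to 2.1).

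In DPT replicate 2, ACTB (5718 CPM, others 3187 to 3581), ACTG1 (2736 CPM, others 1430 to 1578) and SVIL (152 CPM, others 112 to 117) were high, while SYNPO (55.9 CPM, others 75.9 to 77.1), STK10 (106 CPM, others 114 to 116) and EPB41L1 (63.8 CPM, others 79.3 to 82.4) were low. In DMSO replicate 3, ACTG1 (2286 CPM, others 1638 to 1717) and WIPF1 (8.93 CPM, others 7.59 to 7.78) were high. DMSO replicate 3 or DPT replicate 2 was the library concerned in all but the PLS1, PTGER4 and VIL1 flags.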

How the results depend on the processing

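Genes higher and lower over the whole table numbered 718 and 669 with all 8 libraries, 2140 and 2156 with a term for the pair, 2158 and 2169 without it, and 332 to 1183 and 311 to 1108 without single libraries; limma gave 342 lower on log2(FPKM + 1) and 336 on log2(FPKM + 0.1). Members higher numbered 1, or 3 with the term or without the pair and 0 to 2 without single libraries; members lower numbered 0, or 1 without the pair. Of the 147 tested partner genes, 7 rose and 10 fell, against 11 higher in DESeq2, 12 on either limma scale, 34 and 31 with the term, 36 and 37 without the pair, and 2 to 13 and 3 to 18 without single libraries. PLS1's log2 fold change of 0.84 was 0.22 with limma on log2(FPKM + 1) and 0.50 on log2(FPKM + 0.1). PLS1 measured 0.33 to 0.924 FPKM, so the added 1 exceeded every value and shrinks the log2 difference. How much of the drop this makes up was not tested. The log2 fold change of LCP1 ran from 1.71 to 2.60 without single libraries. Without single libraries ACTN1 ran from -0.05 to 0.05, ACTN4 from -0.04 to 0.15 and EZR from -0.28 (without DPT replicate 2) to 0.06 (without DMSO replicate 3).

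Deviations of same-numbered libraries from their group means correlated at 0.20, -0.31, -0.40 and 0.21 for numbers 1 to 4. Those of DMSO replicate 3 and DPT replicate 2 correlated at 0.68. Numbers 2 and 3 each include a library of the pair. The values for numbers 1 and 4 lay within the 0.13 to 0.24 seen among the libraries outside the pair. This check therefore cannot decide whether the number pairs libraries. With a replicate block 171 genes were higher and 174 lower, and LCP1 was still the 1 member past the threshold. In that fit 2 partner genes rose (MYO10 and ARPC5L) and 1 fell (EPB41L1).

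Depth limits PLS1, at 19 to 52 counts, and VIL1, at 0 to 5.05.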
